A study of Mus musculus with 6 samples.

Results

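Bidirectional promoter lncRNAs are long noncoding RNAs whose start lies beside the start of another gene, on the opposite strand, so that both RNAs run away from one shared stretch of promoter DNA. They were taken here from the class that the lncRNA table of NSCs assigns to each transcript. Whether the RNAs of a pair in this class share a promoter was not tested. Of 23098 transcripts in the table, 712 had the relationship bidirectional, and none of these 712 also carried a line with a sense-overlapping or antisense relationship. The rest of the table consisted of 14806 sense-overlapping, 2637 antisense and 4842 intergenic transcripts and 101 transcripts without a class.

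The libraries, 3 from control and 3 from hypoxia/reoxygenation (H/R) cells, were made from rRNA-depleted RNA of the immortalized mouse NSC line C17.2 (genotype WT). The control group stayed under standard oxygen. The H/R group spent 12 h at 5% oxygen and 48 h back under standard oxygen before the RNA was taken, so the comparison describes cells 48 h after the end of hypoxia. All 6 libraries came from 1 line, and it is not stated if the 3 libraries per group were separate cultures, so a p-value reflects only how much these libraries differ. The lncRNA counts summed to 601626 to 652393 per control library and 1145192 to 1239163 per H/R library, and the gene counts to 7267809 to 8371882 and 15639751 to 16830389, so every H/R library had more reads than every control library. Of 9 markers of neural stem cells, 5 averaged above 1 CPM (counts scaled to a common library total), among them Nes at 196 CPM in control and 331 CPM in H/R cells and Sox2 at 29.1 and 31.0 CPM, whereas Sox1, Pax6, Fabp7 and Prom1 were not listed. Of 6 fibroblast markers, 5 averaged above 1 CPM, with summed levels of 5764 to 8321 CPM in control and 5473 to 6816 CPM in H/R libraries, most of it from the collagen genes Col1a1, Col3a1 and Col1a2. Of the other lists reported, 1 of 7 neuron, 1 of 6 astrocyte, 0 of 5 microglia and 0 of 4 endothelium markers averaged above 1 CPM. The summed levels of the neuron list were 73.6 to 81.1 CPM in control and 34.0 to 37.0 CPM in H/R libraries, nearly all from Map2, with Rbfox3, Dcx and Stmn2 not listed. Their part in the results was not tested.

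RNA polymerase II tends to start transcription in both directions at promoters rich in CpG dinucleotides, which lack a TATA box more often than other promoters. The RNA made away from the coding gene is usually spliced little, cut and polyadenylated early and degraded soon by the nuclear exosome, although some of these RNAs are stable and conserved. Because the members of such a pair share open chromatin, they are often compared for whether they change together, for example when ER stress, hypoxia or the cell cycle acts on the coding gene.

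All 712 lncRNAs lay on the strand opposite to their paired gene and none overlapped the paired transcript. The starts were 4 to 998 bases apart, with a median of 172 bases and quartiles of 103 and 324 bases. For 187 of the 367 Genbank models the start is known only within 1 base, and an offset of 1 base was not excluded for the models of Alexander et al 2013, Lei Sun et al 2012 and RefSeq. The starts of 170 lncRNAs were within 100 bases of the paired start, those of 506 within 300 bases, and those of 96 more than 500 bases away. A single paired gene was given for 702 lncRNAs and 2 for the other 10, for which the nearer one was used. The annotated RNA length was 75 to 10743 bases, with a median of 1143 bases. The models came from Genbank cDNAs (367), Ensembl (222), Alexander et al 2013 (49), UCSC (35), RefSeq (33) and Lei Sun et al 2012 (6). GENCODE vM21 held 217 of the Ensembl transcripts, of which it calls 78 lincRNA, 60 antisense, 42 processed transcript and 17 bidirectional promoter lncRNA. The rest are 8 retained intron, 4 misc_RNA, 3 processed pseudogene, 3 pseudogene, 1 unprocessed pseudogene and 1 TEC transcript. The genomic span of 53 lncRNAs overlapped an exon of a protein-coding transcript of GENCODE vM21 on either strand. Below, such a span is said to cover a coding exon, although the exon may be untranslated and the overlap may be short. Because no source states the strand setting of the counting, reads of such an lncRNA and of the coding exon cannot be told apart.

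**Figure D1:**
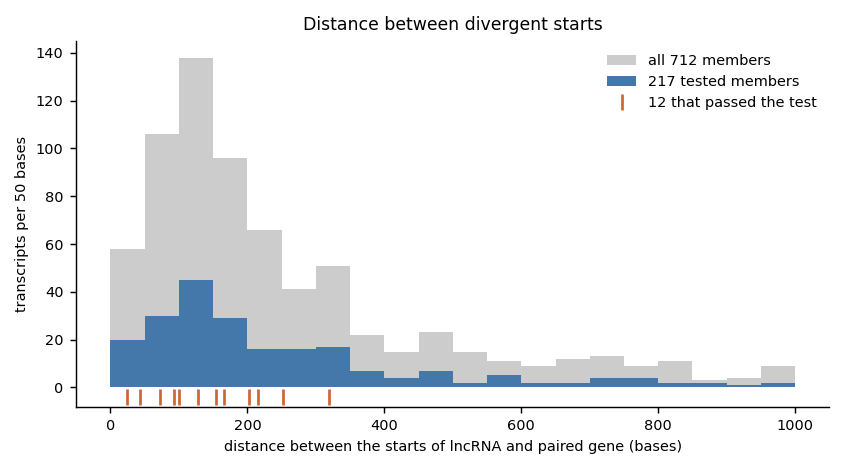
The horizontal axis gives the distance in bases between the start of a bidirectional lncRNA and the start of its paired gene, and the vertical axis the number of transcripts per 50 bases. Grey bars show all 712 lncRNAs, blue bars the 217 with enough reads for the test, and orange marks below the bars the 12 that passed it. The 12 lie between 24 and 319 bases.

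The promoters of the pairs described below are printed from 250 bases before to 50 bases after the RefSeq start of the coding gene (GRCm38.p6, the assembly behind mm10), 5′ to 3′ on the strand of the coding gene. They belong to the up to 3 called lncRNAs per direction that had the smallest adjusted p, and to the pairs with the smallest adjusted p for a different change of lncRNA and gene. Capitals mark matches, on either strand, to the motifs CCAAT (NF-Y), GGGCGG (GC box), ACTTCCGG (ETS), TGCGCA (core of NRF1), TGACGTCA (CRE), ACGTG (core of the hypoxia response element) and, as the 2 parts of the ER stress response element (ERSE), CCAAT and CCACG with 9 bases between them.
Ept1 (listed by RefSeq as Selenoi, chr5:30232331-30232630, + strand, lncRNA starts 165 and 215 bases before the gene start): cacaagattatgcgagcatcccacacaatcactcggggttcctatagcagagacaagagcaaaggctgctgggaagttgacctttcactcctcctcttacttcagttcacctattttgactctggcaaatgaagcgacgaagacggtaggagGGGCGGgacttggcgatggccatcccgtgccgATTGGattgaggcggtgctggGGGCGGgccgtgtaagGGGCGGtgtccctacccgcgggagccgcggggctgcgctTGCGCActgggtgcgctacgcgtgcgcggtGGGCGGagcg
Zfp316 (chr5:143269973-143270272, - strand, lncRNA start 43 bases before): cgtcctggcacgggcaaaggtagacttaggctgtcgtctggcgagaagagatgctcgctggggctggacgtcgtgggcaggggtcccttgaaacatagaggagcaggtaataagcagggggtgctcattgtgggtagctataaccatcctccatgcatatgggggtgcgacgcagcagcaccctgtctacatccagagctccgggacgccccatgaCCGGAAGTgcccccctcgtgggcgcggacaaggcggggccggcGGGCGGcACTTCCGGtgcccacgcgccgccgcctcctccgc
Hspa5 (chr2:34771840-34772139, + strand, lncRNA start 24 bases before): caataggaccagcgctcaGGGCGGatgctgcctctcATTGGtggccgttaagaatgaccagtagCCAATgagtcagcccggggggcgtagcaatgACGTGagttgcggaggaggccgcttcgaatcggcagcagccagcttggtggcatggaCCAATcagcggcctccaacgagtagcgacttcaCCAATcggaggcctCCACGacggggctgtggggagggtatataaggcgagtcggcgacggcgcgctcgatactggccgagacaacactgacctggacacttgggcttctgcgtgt
Mycbp (chr4:123904763-123905062, + strand, lncRNA start 171 bases before): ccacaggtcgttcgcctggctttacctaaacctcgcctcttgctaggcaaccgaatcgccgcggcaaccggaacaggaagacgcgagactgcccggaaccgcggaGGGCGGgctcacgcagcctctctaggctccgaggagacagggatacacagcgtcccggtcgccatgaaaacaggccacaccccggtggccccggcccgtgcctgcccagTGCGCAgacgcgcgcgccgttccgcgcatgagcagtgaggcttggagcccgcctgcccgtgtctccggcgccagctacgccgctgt
Pdzd8 (chr19:59345731-59346030, - strand, lncRNA start 128 bases before): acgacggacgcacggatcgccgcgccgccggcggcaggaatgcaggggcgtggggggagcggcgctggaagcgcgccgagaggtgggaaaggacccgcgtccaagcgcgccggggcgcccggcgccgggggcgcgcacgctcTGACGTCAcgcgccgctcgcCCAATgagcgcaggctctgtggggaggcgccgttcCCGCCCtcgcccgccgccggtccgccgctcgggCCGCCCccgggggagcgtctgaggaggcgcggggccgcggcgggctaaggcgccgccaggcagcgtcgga
Uso1 (chr5:92137688-92137987, + strand, lncRNA start 286 bases before): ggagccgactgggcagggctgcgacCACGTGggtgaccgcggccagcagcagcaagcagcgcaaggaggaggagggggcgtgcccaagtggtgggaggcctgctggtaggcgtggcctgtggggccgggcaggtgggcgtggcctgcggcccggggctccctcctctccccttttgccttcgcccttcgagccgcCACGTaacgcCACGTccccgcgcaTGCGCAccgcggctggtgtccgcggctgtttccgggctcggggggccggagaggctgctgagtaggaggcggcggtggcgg
The promoter of Rev3l, beside a called lncRNA, is named only. The Hspa5 window held 4 matches to CCAAT and the full ERSE, whose first base lies 65 bases before the start of Hspa5. Seen from Hspa5, the ERSE thus lies beyond the lncRNA start and within the span of the lncRNA. The Zfp316 window held 2 ETS matches, 1 on each strand, with first bases 34 bases before the start and at position 17 of the transcript. The Pdzd8 window held a CRE at 108 bases before the start, and the Uso1 window held 4 matches to ACGTG, of which 2 overlap in the palindrome CACGTG. None of these 6 windows held TATAAA, although the Hspa5 window holds the similar letters TATATAAG, which the search did not cover. A match is a description of the letters and not a bound site.

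Over all pairs, 546 of 712 lncRNAs could be given a RefSeq window whose start was within 250 bases of the start used in the table, which left 503 different windows. GC content had a median of 64.3% in these windows, 56.3% in 21262 windows of protein-coding genes and 52.7% in all 32851 windows of the RefSeq table. CpG dinucleotides occurred at a median of 0.871 of the number expected from base composition, compared with 0.567 in windows of protein-coding genes and 0.384 in all windows. A GC content of at least 50% together with a CpG ratio of at least 0.6 was found in 87.7% of the windows of paired genes, 45.1% of protein-coding and 33.5% of all windows. GGGCGG was present in 76.7%, 46.2% and 35.7% of the same 3 sets, and ACTTCCGG in 13.3%, 5.15% and 3.89%. TGCGCA was present in 18.5%, 9.74% and 7.76%, ACGTG in 29.2%, 20.9% and 19.6%, AAGATGGCG (YY1) in 4.97%, 1.83% and 1.40%, and TGACGTCA in 4.77%, 2.23% and 1.79%. CCAAT differed little, at 40.4%, 38.2% and 37.4%. TATAAA was less frequent in windows of paired genes, at 3.98%, than in the other sets, at 12.6% and 13.6%. The E2F letters TTTGGCGC or TTTCCCGC were in 3.58%, 2.02% and 1.56%, and the ERSE was in 3 of 503 windows of paired genes and in 39 of all windows. These shares are descriptions, and the sets also differ in GC content as given above. The protein-coding windows cover 17491 genes, some with several windows, and were not limited to genes with reads in these cells. Genes with reads in these cells were not compared separately, so the shares are not read as a trait of the class.

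**Figure D2:**
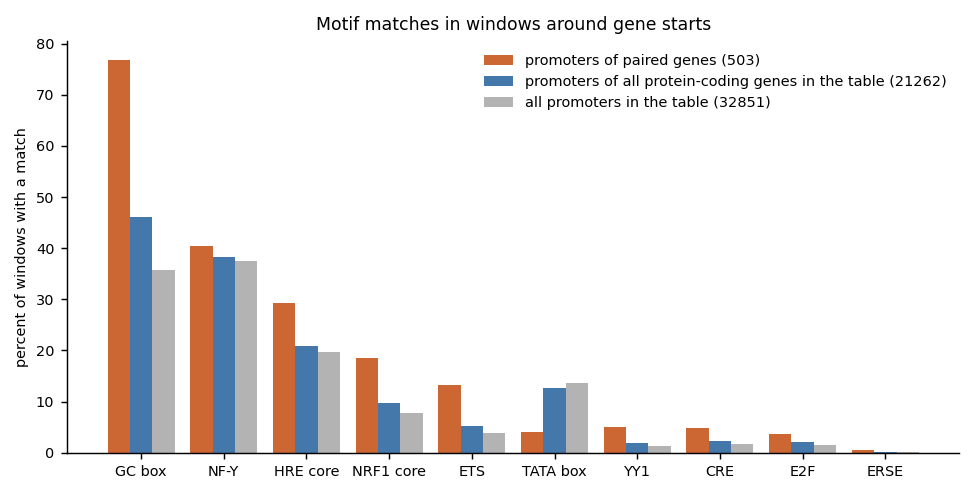
The horizontal axis lists the motifs and the vertical axis gives the percentage of windows with at least 1 match on either strand, for 503 windows of paired genes (orange), 21262 windows of protein-coding genes (blue) and all 32851 windows (grey). The GC box reached 76.7% beside paired genes against 35.7% in all windows, and the TATA box 3.98% against 13.6%.

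The bidirectional lncRNAs were weakly expressed. Over the 6 libraries together, the median lncRNA had 26 reads, 188 had fewer than 10 reads, 126 had at least 100 and 6 had at least 1000. All 6 libraries held at least 1 read of 239 lncRNAs. Per library, 413, 436 and 445 lncRNAs had a read in the control group and 555, 545 and 528 in the H/R group. If every library were reduced to the median control total, 409, 436 and 445 would be expected in the control group and 507, 499 and 485 in the H/R group, still without overlap. Counts over all transcripts of the lncRNA table are not given beside these, so they are not read as a trait of the class.

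Per kb of RNA, the bidirectional lncRNA was usually far below its coding gene. Among 686 lncRNAs whose gene had counts, reads per kb averaged over the 6 libraries had a median of 3.44% of the level of the paired gene, with quartiles of 1.04% and 11.2%. The lncRNA was above the gene in 45 pairs and under 1% of it in 164. Among the 214 pairs of tested lncRNAs the median was 8.62%, and the lncRNA was above the gene in 17. In these 17 pairs the gene level ran from 0.0193 (D19Bwg1357e) to 2680 (Rps29) reads per kb. Where the gene had few reads, the ratio is uncertain. The levels of lncRNA and gene both use the annotated exons. The gene table was counted with HTSeq and the counter of the lncRNA table is not stated, so the ratio also carries any difference between the counters.

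**Figure D3:**
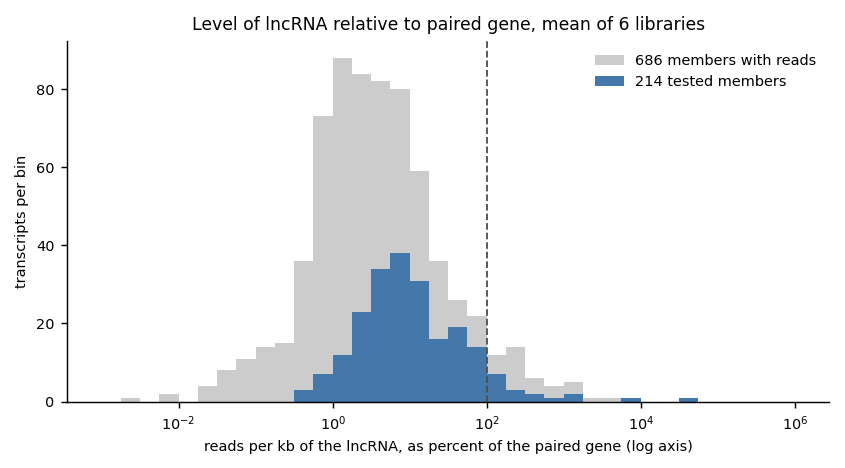
The horizontal axis gives, on a log axis, reads per kb of the lncRNA as a percentage of reads per kb of its paired gene, averaged over 6 libraries, and the vertical axis the number of pairs per bin. Grey bars show 686 pairs, blue bars the 214 whose lncRNA was tested, and the dashed line marks equal levels, above which 45 and 17 pairs lie.

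A single transcript dominated the reads of the class. Metazoa_SRP (ENSMUST00000174924, chr12:69159295-69159594), a 300-base RNA that GENCODE vM21 calls misc_RNA and whose name refers to the signal recognition particle, starts 109 bases from Rps29, a gene of the small ribosomal subunit. Control libraries held 12052, 3389 and 7061 of its reads and H/R libraries 13071, 13932 and 5424, which was 28.1% to 69.9% of all reads of the 712 lncRNAs in a library. Its level was 12919 ± 6915 CPM in control and 9374 ± 4140 CPM in H/R cells (SD, n = 3 each), and the groups overlapped. The log2 fold change was -0.46 (standard error 0.33, adjusted p = 0.536, quasi-likelihood test of edgeR, Benjamini-Hochberg adjustment). RNAs of this kind exist in many near-identical genomic copies, so the share of reads assigned to this copy is uncertain. Without it, the other 711 lncRNAs took 0.898% ± 0.100 of lncRNA reads in control and 1.12% ± 0.0806 in H/R libraries (SD, n = 3 each). The groups did not overlap, and the two-sided exact permutation test gave p = 0.1, the smallest value that 3 against 3 libraries can give.

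Of the 5 lncRNAs next in mean level, 1, beside Ept1, passed the test and is described further on. 4632427E13Rik (ENSMUST00000147198, chr7:92734166-92741459), which GENCODE vM21 calls a bidirectional promoter lncRNA, is paired with Rab30, a small GTPase gene of the Golgi apparatus. Its level was 871, 796 and 785 CPM before and 887, 780 and 884 CPM after H/R, and the groups overlapped (log2 fold change 0.06, standard error 0.17). Per kb it was at 195% of Rab30 in control and 227% in H/R cells. AK156663 (chr12:101974316-101975711), beside the polyadenylation factor gene Cpsf2, had 283, 325 and 323 CPM in control and 417, 394 and 353 CPM in H/R libraries, with no overlap but an adjusted p of 0.439 from edgeR. B230354K17Rik (ENSMUST00000181149, chr17:45433852-45442544), beside the splicing factor gene Cdc5l, had 280, 221 and 209 CPM and then 273, 284 and 270 CPM, with overlap. GU332589 (uc012hdk.1, chrM:1094-2681), paired with mt-Nd1, a subunit gene of respiratory complex I, runs over the mitochondrial rRNA gene mt-Rnr2 on the other strand. Its reads were 120, 209 and 185 in control and 290, 277 and 921 in H/R libraries, and H/R replicate 3 held most of the H/R reads. Reads of mt-Rnr2 and of this lncRNA cannot be told apart without the strand.

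To ask which bidirectional lncRNAs differed after H/R, all lncRNAs of the table with enough reads were fitted together, and the rows of the class were read from that fit. The filter on low counts kept 217 of the 712 lncRNAs (30.5%, against 29.3% of all 23098). The other 495 had a median of 13 reads in all, and none of them can be called. The filter asks for a minimum level in any 3 libraries, so an lncRNA could pass through 1 group alone. An adjusted p under 0.05 was reached by 9 lncRNAs that were higher after H/R (4.15%, against 2.67% of all 6779 tested) and by 3 that were lower (1.38%, against 2.26%). With 1 library left out, 3 or 4 were higher and 0 lower without any 1 of the H/R libraries, 4 and 1 without control replicate 2, 6 and 2 without control replicate 3, and 8 and 2 without control replicate 1, and the called lncRNAs other than both beside Ept1 and AK039135 each lost the call in at least 1 of these fits. With the looser thresholds of the study, which ask for a 2-fold change and an unadjusted p under 0.05, 20 were higher (9.22%, against 6.92% of all tested) and 6 were lower (2.76%, against 4.97%). Every H/R library was above every control library for 32 of the 217 (14.7%, against 13.2%) and below for 9 (4.15%, against 10.8%). Among antisense, intergenic and sense-overlapping transcripts, 35 of 566, 69 of 1359 and 66 of 4619 were higher at an adjusted p under 0.05 by edgeR. Lower were 11, 39 and 100 in the same order. Log2 fold changes of the 217 bidirectional lncRNAs ran from -2.14 to 3.08 with a median of 0.14, beside 0.02 over all lncRNAs tested. The medians of the other 3 classes were 0.21, 0.11 and -0.03 in the order above. With the totals and scaling factors of the gene table the medians of the bidirectional lncRNAs and of all lncRNAs were -0.08 and -0.22. The sign of the median of the bidirectional class thus depends on the scaling.

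Among the lncRNAs that rose, those beside Ept1 had the most reads. Ept1 (Selenoi) encodes an ethanolamine phosphotransferase of phosphatidylethanolamine synthesis, and lncRNAs TCONS_00025221 (XLOC_018993, chr5:30227728-30232416) and BU511568 (chr5:30223928-30232366) start 202 and 252 bases from it by the coordinates of the table. They overlap on the same strand, and reads in the shared part cannot be assigned to 1 of them, so they count as 1 locus. TCONS_00025221 had 181, 187 and 177 CPM in control and 526, 381 and 514 CPM in H/R cells. BU511568 had 78.0, 110 and 81.7 CPM and then 200, 203 and 200 CPM. For both, every H/R library was above every control library. The log2 fold changes were 1.38 (standard error 0.21, adjusted p = 0.000519) and 1.15 (standard error 0.24, adjusted p = 0.00776, edgeR with Benjamini-Hochberg adjustment). Per kb TCONS_00025221 was at 72.9% of Ept1 in control and at 134% in H/R cells, and BU511568 at 69.8% and 109%. Ept1 itself had 132, 114 and 98.9 CPM in control and 135, 138 and 145 CPM in H/R cells. Its log2 fold change of 0.28 (standard error 0.11) did not pass the test, with an adjusted p of 0.0656 from edgeR. The difference between lncRNA and gene was 1.08 for TCONS_00025221 and 0.89 for BU511568 on the log2 scale, with adjusted p of 0.207 and 0.359 from edgeR over all pairs.

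AK039135 (chr5:143270065-143272509) starts 43 bases from Zfp316, a zinc finger gene. It had 15.9, 27.6 and 63.8 CPM in control and 133, 127 and 127 CPM in H/R libraries, and the H/R values lay close together and above all controls. It rose by 1.88 on the log2 scale (standard error 0.39, adjusted p = 0.00715 by edgeR with Benjamini-Hochberg adjustment). Zfp316 had 24.1, 22.3 and 20.4 CPM and then 27.1, 23.6 and 23.8 CPM, with overlap (log2 fold change 0.16, standard error 0.15). Per kb the lncRNA was at 36.7% of Zfp316 in control and at 106% in H/R cells. Gm10524 (ENSMUST00000181931, chr18:82692949-82706174) lies beside another zinc finger gene, Zfp236. It had 66.9, 55.2 and 41.8 CPM and then 122, 127 and 137 CPM without overlap, and rose by 1.22 (standard error 0.29, adjusted p = 0.0182 by edgeR), a call that was lost when scaled by the gene table. Zfp236 overlapped between the groups, at 59.1 ± 5.99 and 62.3 ± 1.70 CPM (SD, n = 3 each).

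The lncRNA AK081893 (chr7:110119990-110121740), 319 bases from Wee1, the kinase gene that holds back entry into mitosis by phosphorylating CDK1, had 12, 8 and 4 reads in control and 54, 73 and 62 reads in H/R libraries. In CPM these were 19.1, 13.0 and 7.97 against 45.0, 65.7 and 53.6, with no overlap. It rose by 2.0 on the log2 scale (standard error 0.51, adjusted p = 0.0265 by edgeR). Per kb the lncRNA was at 23.4% of Wee1 in control and at 50.7% in H/R cells. Wee1 had 6.06, 10.7 and 10.6 CPM and then 10.4, 14 and 17.8 CPM. The Wee1 groups overlapped, and its log2 fold change of 0.63 (standard error 0.28) gave an adjusted p of 0.0901 by edgeR.

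The other 4 lncRNAs that rose rested on few control reads, all under 10 in a library. AK006235 (chr19:59345908-59346675), 128 bases from Pdzd8, a gene for a tether and lipid transfer protein of ER contact sites, had 2, 1 and 2 reads in control and 30, 18 and 41 reads in H/R libraries. AK017998 (chr14:34672466-34673762), beside Wapal, which encodes the cohesin release factor, had 4, 5 and 2 reads and then 51, 20 and 56. 2700099C18Rik (ENSMUST00000182313, chr17:94750112-94757016), beside the methyltransferase gene Mettl4, had 9, 5 and 1 reads and then 46, 49 and 49. None of these 3 overlapped between the groups after scaling. 1600020E01Rik (ENSMUST00000180896, chr6:86526271-86564442), beside Pcbp1, an RNA-binding protein gene, had 1, 0 and 7 reads and then 60, 40 and 42. The span of 1600020E01Rik overlaps an exon of a protein-coding transcript of Pcbp1. The log2 fold changes were 3.08 (standard error 0.85), 2.52 (0.68), 2.29 (0.64) and 3.05 (0.83) in this order, with adjusted p between 0.0396 and 0.0441 by edgeR with Benjamini-Hochberg adjustment. Of 15 alternatives, the call was lost in 10 for AK006235, in 8 for AK017998 and 2700099C18Rik, and in 5 for 1600020E01Rik. Scaling by the gene table was among them for the first 3 of these lncRNAs. Pdzd8 fell by 0.35 on the log2 scale (adjusted p = 0.00635) and Pcbp1 fell by 0.43 (adjusted p = 0.00274), both by edgeR, while Wapal (-0.08) and Mettl4 (0.28) did not pass.

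Of the 3 lncRNAs that fell, AK019776 (chr2:34769502-34772066) starts 24 bases from Hspa5, which encodes the main Hsp70 chaperone of the ER (BiP). It had 170, 231 and 321 CPM in control and 108, 97.2 and 108 CPM in H/R libraries, without overlap. It fell by 1.20 on the log2 scale (standard error 0.25, adjusted p = 0.00794 by edgeR with Benjamini-Hochberg adjustment). Hspa5 had 12494, 11709 and 12080 CPM in control and 1431, 1504 and 1601 CPM in H/R libraries, and fell by 3.0 (standard error 0.08, adjusted p = 4.52e-11 by edgeR). Per kb the lncRNA was at 0.253% of Hspa5 in control and at 0.763% in H/R cells. The Genbank model of AK019776 overlaps an exon of a protein-coding transcript of Hspa5 in GENCODE vM21. What share of its reads came from Hspa5 therefore cannot be told from the counts. The Hspa5 promoter, printed above, is the only 1 of the 6 with an ERSE.

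E130307A14Rik (ENSMUST00000155482, chr10:39679016-39732006) starts 154 bases from Rev3l, the catalytic subunit gene of the translesion DNA polymerase zeta, and its span covers no coding exon. It had 110, 102 and 69.7 CPM in control and 32.5, 36.9 and 35.4 CPM in H/R libraries, without overlap, and fell by 1.43 (standard error 0.34, adjusted p = 0.0182 by edgeR with Benjamini-Hochberg adjustment). A shorter model of the same gene, ENSMUST00000153113 (chr10:39721413-39731967), starts 193 bases from Rev3l and is a member of the class too. It had 60.5, 48.7 and 39.8 CPM and then 23.3, 33.3 and 46.7 CPM, with overlap, and did not pass (log2 fold change -0.53, adjusted p = 0.604 by edgeR). Both lie on the same strand, and reads in the part they share cannot be assigned to 1 of them. Rev3l stood at 343 ± 24.2 CPM in control and 351 ± 26.7 CPM in H/R cells (SD, n = 3 each), with overlap. The difference between lncRNA and gene was -1.44 (adjusted p = 0.104 by edgeR over all pairs). Gm26606 (ENSMUST00000181292, chr4:123898633-123904842), whose span covers a coding exon of Mycbp, the gene of a MYC-binding protein, had 41.4, 208 and 277 CPM in control and 43.3, 45.9 and 54.5 CPM in H/R libraries. Its groups overlapped, since control replicate 1 was below all H/R libraries. The log2 fold change of -1.86 (standard error 0.44) still passed by edgeR, with an adjusted p of 0.0183. Mycbp had 10.0 ± 0.495 CPM in control and 14.4 ± 0.622 CPM in H/R cells (SD, n = 3 each), without passing the test (log2 fold change 0.52, adjusted p = 0.0522 by edgeR).

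**Figure D4:**
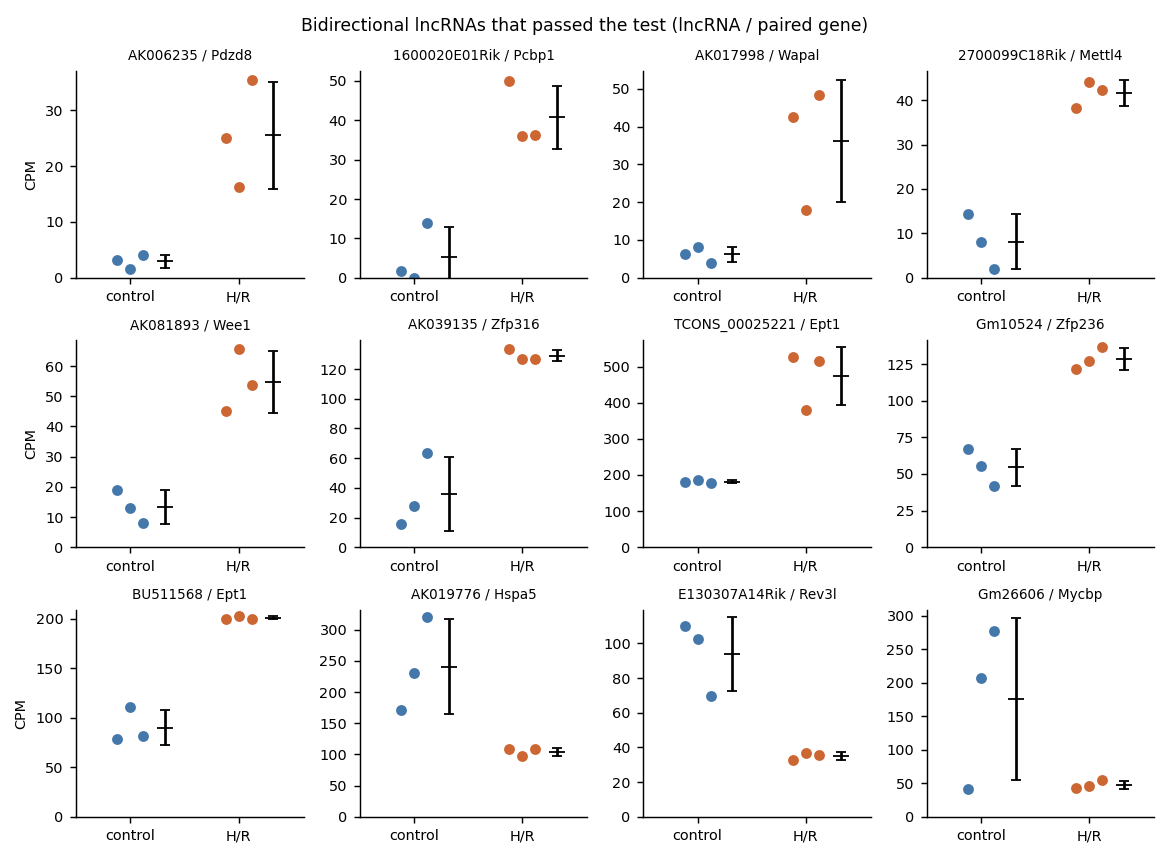
Each panel shows 1 of the 12 bidirectional lncRNAs that passed the test, named with its paired gene, with CPM on a linear vertical axis from 0. Points are the 3 control (blue) and 3 H/R (orange) libraries, and black marks give the mean ± SD, clipped at 0. In 11 panels the groups do not overlap, and in the panel of Gm26606 the lowest control point lies at 41.4 CPM beside H/R points of 43.3 to 54.5 CPM.

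Fewer than 1 in 10 tested bidirectional lncRNAs passed, whereas the coding genes beside them passed more often in a fit whose replicates varied less. The coefficient of variation between replicates was 0.405 for lncRNAs and 0.144 for genes. The 217 tested lncRNAs had 205 different tested genes as partners, of which 29 were higher after H/R (14.1%, against 18.8% of all 11104 genes tested) and 51 were lower (24.9%, against 19.0%). Their median log2 fold change was -0.10, beside 0.01 over all genes. Of the 601 tested genes paired with any of the 712 lncRNAs, 101 were higher (16.8%) and 125 lower (20.8%). Without scaling factors the median of all genes moved to 0.22. The genes of tested lncRNAs then split into 63 higher (30.7%, against 33.4% of all genes) and 28 lower (13.7%, against 11.5%).

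The partners with the smallest adjusted p among those that fell belonged to the secretory pathway and to transcription. Beside Hspa5 they were Hyou1, an ER chaperone and exchange factor for Hspa5, P4hb, a disulfide isomerase of the ER, Uso1, a tether of vesicles between ER and Golgi, and Ets2, a transcription factor. Hyou1 fell from 2793 ± 354 to 286 ± 11.9 CPM (SD, n = 3 each), by 3.29 on the log2 scale. AK020500 (chr9:44378633-44379296), 194 bases from Hyou1, had 14, 7 and 9 reads in control and 0, 5 and 8 in H/R libraries. Its CPM were 22.3, 11.4 and 17.9 against 0, 4.50 and 6.92 without overlap, and its log2 fold change of -2.14 (standard error 1.05) did not pass (adjusted p = 0.311 by edgeR). P4hb fell by 1.46, whereas AK155494 (chr11:120573831-120575207), 895 bases away, had 33.1 ± 8.05 and 25.5 ± 7.64 CPM (SD, n = 3 each) with overlap. Uso1 fell by 1.54, from 684 ± 81.6 to 235 ± 1.63 CPM. AK051813 (chr5:92134159-92137652), 286 bases from Uso1, had 66.9, 79.6 and 47.8 CPM in control and 80.0, 67.5 and 68.3 CPM in H/R libraries, and the groups overlapped. Ets2 fell by 1.49, and AK046438 (chr16:95701212-95702360), whose span covers a coding exon of Ets2, had 6, 8 and 7 reads and then 14, 0 and 6. The adjusted p of these 5 genes ran from 4.52e-11 to 1.31e-07 by edgeR with Benjamini-Hochberg adjustment.

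The partners with the smallest adjusted p among those that rose were mostly genes of cell division, and their lncRNAs did not pass. Kif11, the spindle kinesin gene, rose by 1.83 on the log2 scale, Incenp, of the chromosomal passenger complex, by 1.08, and Ncapg2, of condensin II, by 1.15. AK084061 (chr19:37375401-37376290), beside Kif11, had 9, 10 and 1 reads in control and 14, 4 and 28 in H/R libraries, with overlap. TCONS_00015983 (chr19:9899686-9902673), beside Incenp, had 17.5, 34.1 and 75.7 CPM and then 36.7, 21.6 and 30.3 CPM, with overlap. D430020J02Rik (NR_028421, chr12:116401947-116405161), beside Ncapg2, had 116, 117 and 114 CPM and then 128, 149 and 93.4 CPM, and its H/R values lay on both sides of the controls. Trim11, a ubiquitin ligase gene, rose by 1.30, and BC030470 (uc007jcx.1, chr11:58976689-58978050) beside it had 16.8 ± 3.70 and 21.5 ± 6.33 CPM (SD, n = 3 each). Map3k8, a kinase gene of MAPK signalling, rose by 1.42, from 9.93 ± 0.739 to 26.6 ± 2.59 CPM. 4833419F23Rik (NR_040328, chr18:4353547-4368945), 594 bases from Map3k8, had 1, 10 and 6 reads in control and 49, 30 and 83 in H/R libraries, without overlap after scaling. Its log2 fold change of 2.23 (standard error 0.67) had an adjusted p of 0.0651 by edgeR. This lncRNA passed as higher in 5 alternatives and still missed the threshold in 10. Those that passed included no filter on low counts (adjusted p = 0.0174 by edgeR) and DESeq2 (adjusted p = 0.0319). The adjusted p of these 5 genes ran from 1.16e-06 to 7.69e-05 by edgeR with Benjamini-Hochberg adjustment.

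Whether an lncRNA and its gene changed by different amounts was tested within libraries, with the counts of both side by side, over the 5319 lncRNA-gene pairs of all classes in which both passed the filter. At an adjusted p under 0.05 the test called 0 of 211 bidirectional pairs, against 3 of all 5319 pairs (0.0564%), all 3 of them antisense pairs. At an unadjusted p under 0.05 edgeR gave 37 of the 211 (17.5%, against 10.5% of all pairs), and limma on the log2 ratio gave 35, with 0 at an adjusted p under 0.05. At the same unadjusted threshold edgeR gave 101 of 443 antisense pairs and 421 of 4665 sense-overlapping pairs, which made up most of all pairs. Among the bidirectional pairs the difference was above 0 on the log2 scale, that is, the lncRNA moved up relative to its gene, in 134. It was below 0 in 77, with a median of 0.36 beside 0.11 over all pairs. These signs depend on the scaling of the lncRNA table against the gene table. A p that misses the threshold does not show that lncRNA and gene changed alike.

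The smallest adjusted p for a difference, 0.0598 by edgeR, was shared by 3 pairs whose promoters are printed above. For AK006235 and Pdzd8 the difference was 3.47 (standard error 0.52), with the lncRNA higher and Pdzd8 lower after H/R. For AK019776 and Hspa5 it was 1.84 (0.29), since the lncRNA fell less than the gene. For AK051813 and Uso1 it was 1.70 (0.28), with Uso1 lower and no detectable change of the lncRNA. When the H/R libraries were thinned to the median control total, these 3 pairs passed the test with edgeR, and they did so in no other of the 13 alternatives. With no filter on low counts the adjusted p by edgeR were 0.427 for Pdzd8, 0.275 for Hspa5 and 0.647 for Uso1, and with a minimum of 1 CPM in 3 libraries they were 0.313, 0.313 and 0.333. In the same direction followed AK017998 and Wapal with 2.56 (adjusted p = 0.128) and 1600020E01Rik and Pcbp1 with 3.61 (adjusted p = 0.177), both by edgeR. In the other direction, the smallest adjusted p belonged to E130307A14Rik and Rev3l (-1.44), AK014798 and Pgp (-1.59), Gm26606 and Mycbp (-2.10), D430020J02Rik and Ncapg2 (-1.07), and TCONS_00010899 and Lima1 (-1.30). Pgp, a phosphatase gene of metabolite repair, and Lima1, an actin-binding protein gene, rose by 0.91 and 0.79 (adjusted p = 0.0312 and 7.95e-05 by edgeR). AK014798 (uc008awd.1, chr17:24465458-24470313) had 33.4, 34.1 and 21.9 CPM and then 27.5, 18 and 14.7 CPM, with overlap. TCONS_00010899 (chr15:99875556-99884600) had 41.4, 115 and 95.6 CPM and then 60, 48.6 and 61.4 CPM, also with overlap.

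**Figure D5:**
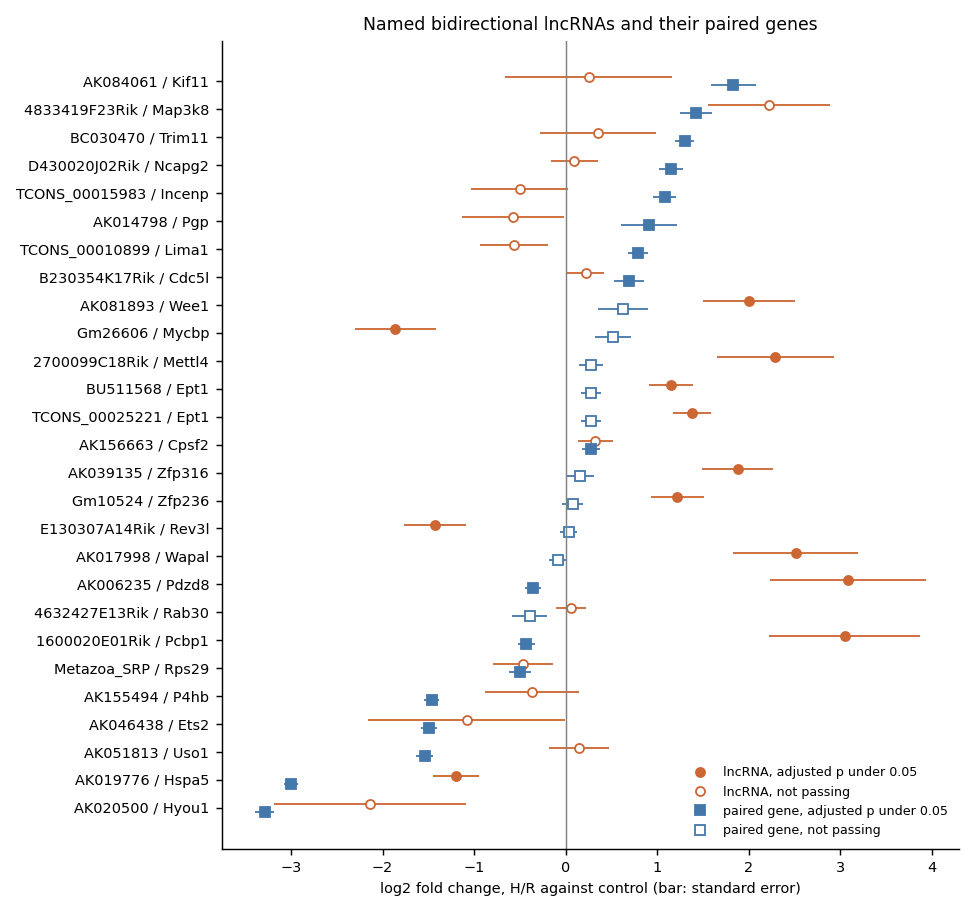
The horizontal axis gives the log2 fold change of H/R against control with its standard error, for the lncRNA (orange circles) and the paired gene (blue squares) of 27 named pairs. Filled symbols passed the test at an adjusted p under 0.05. Hspa5 (-3.0) and AK019776 (-1.20) are the only pair in which both symbols are filled and lie on the same side of 0, and the Pdzd8 and Pcbp1 pairs are filled on opposite sides.

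The paired genes were grouped by words in their deposited GO terms. Shares of partners count a gene once per lncRNA, over the 688 lncRNAs whose paired gene was in the gene table. Shares of the gene table count each gene once. Genes of transcription and chromatin were 27.3% of the partners and 19.0% of the gene table, those of RNA processing and translation 15.1% and 9.06%, of cell division 11.3% and 7.74%, and of DNA repair and replication 6.69% and 3.46%. Genes of the cell surface and signalling were 29.5% and 33.5%. Over the 7 groups, 0 to 2 of the tested lncRNAs rose and 0 or 1 fell, beside 2.67% and 2.26% of all lncRNAs tested, so these numbers are too small to be read against that share. For the cell division group 1 of 23 lncRNAs rose, AK081893 beside Wee1. The 1 lncRNA that fell was E130307A14Rik of 13 for DNA repair and replication, and AK019776 of 29 for the ER and Golgi.

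The tested genes of these groups are given beside the shares of all tested genes with the same words, since those shares differ from the 18.8% higher and 19.0% lower over all genes. For cell division 8 of 23 paired genes rose and 3 fell, beside 31.9% and 15.1% of all 1032 such genes. For DNA repair and replication 2 of 12 rose and 3 fell, beside 34.4% and 13.7% of 483. For transcription and chromatin 5 of 53 rose and 19 fell, beside 20.3% and 18.6% of 2399. For RNA processing and translation 5 of 43 rose and 14 fell, beside 13.0% and 26.8% of 1258. For the ER and Golgi 1 of 28 rose and 9 fell, beside 18.8% and 26.2% of 1693. For the mitochondrion 1 of 30 rose and 9 fell, beside 14.1% and 18.7% of 1536. For the cell surface and signalling 5 of 54 rose and 18 fell, beside 21.2% and 22% of 3504. The paired genes of cell division had a median log2 fold change of 0.17, beside 0.12 over all genes with these words. Those of DNA repair and replication had -0.06 beside 0.21, of transcription and chromatin -0.19 beside 0.02, and of RNA processing and translation -0.14 beside -0.06. The medians were -0.20 beside -0.03 for the ER and Golgi, -0.15 beside -0.03 for the mitochondrion and -0.10 beside -0.00 for the cell surface and signalling. A gene may be in several groups: GO places Hspa5 in 4 of the 7, and Ept1 counts under the mitochondrion.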

How the data were processed

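The authors removed rRNAs, sequenced the libraries as 150 bp pairs, used cutadapt 1.9.3 for trimming and HISAT2 2.0.4 for alignment to mm10, and made the gene counts with HTSeq 0.9.1. The deposited lncRNA table holds their raw counts per transcript, with the counter, strand setting and annotation release not given in the sources used here, and 12 columns of normalized values were not used. Repeated lines of a transcript were reduced to 1.

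Each table was analysed in R 4.3.3 with edgeR 4.0.16: filterByExpr, TMM factors, the two-sided quasi-likelihood test (3 H/R and 3 control libraries, no covariate), and Benjamini-Hochberg adjustment over all features tested. CPM are scaled by these factors. Pairs were fitted with library as a block and the interaction of RNA and group, or with limma 3.58.1 on log2 ratios with a pseudocount of 0.5 CPM. DESeq2 1.42.0 and edgeR's exact test were alternatives. The fits were tested on simulated data. The 20 bases from each RefSeq start matched GENCODE vM21 transcripts at 99.8% of 14128 shared starts.

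Members and lists were chosen with earlier results of these data known. Named are all called lncRNAs, the 6 with the highest mean CPM, the 5 per direction with the smallest adjusted p for a difference from the partner, the 5 per direction whose partner had the smallest adjusted p, and tested hosts of small nucleolar RNAs, of which there were 0. The ERSE and the set without coding exons were added after the data were seen. The reads carry no molecular identifiers, so PCR copies are counted too.

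Replicates were compared before averaging: chi-square per degree of freedom over lncRNAs was 4.93 to 7.38, so no library duplicated another. The result of 1 list of cell type markers is not reported here.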

Additional observations from a re-analysis of the deposited data

How the results depend on the processing

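All 712 lncRNAs already had bidirectional lines only, a start within 1000 bases and no overlap with the paired transcript used for the distance. These 3 alternatives therefore could not change the 9 higher and 3 lower and test nothing. The overlap was taken against that transcript only, and not against other transcripts of the paired gene. RLE factors, DESeq2, the exact test, 1 CPM in 3 libraries, no filter, no scaling factors and thinning gave 7 to 12 higher and 3 or 4 lower. When scaled by gene counts, 5 bidirectional lncRNAs were higher, and over all classes 114 were higher and 314 lower, compared with 181 and 153. The thresholds of the study gave 20 and 6 bidirectional lncRNAs, 469 and 337 of all lncRNAs, and 8 and 8 paired genes. Without scaling factors 63 paired genes were higher and 28 lower, with the median of all genes moved to 0.22. Leaving out the lncRNAs whose span holds a coding exon left 8 higher and 1 lower, and thinning H/R raised the pairs with different changes from 0 to 3, which no other alternative did.

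With 1 library left out, 3 to 8 bidirectional lncRNAs were higher and 0 to 2 lower, over all classes 78 to 184 and 78 to 148, among paired genes 19 to 29 and 40 to 59, and 0 pairs differed. These fits hold fewer libraries. Bidirectional lncRNAs fell to 3 higher and 0 lower without H/R replicate 1, to 4 and 0 without H/R replicate 2, to 3 and 0 without H/R replicate 3, to 4 and 1 without control replicate 2, and to 6 and 2 without control replicate 3. Both lncRNAs beside Ept1 and AK039135 passed under every alternative that tested them. AK006235 lost the call in 10 of 15 alternatives, AK017998 and 2700099C18Rik in 8, Gm10524 in 6, and AK019776 in 3. For AK081893, 1600020E01Rik, E130307A14Rik and Gm26606 the call was lost in 5. Of the named lncRNAs that were not called, 4833419F23Rik beside Map3k8 passed in 5 alternatives and Metazoa_SRP in 1.

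Deviations of same-numbered libraries from their group means had correlations of -0.01 to 0.01 over lncRNAs and 0.00 to 0.04 over genes. Not every library correlated best with its own number. Such small correlations do not settle whether same-numbered libraries shared a batch or culture. The replicate block gave 6 higher and 3 lower bidirectional lncRNAs, 154 and 135 of all lncRNAs, 26 and 49 paired genes and, with limma, 0 pairs.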

Other observations

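Snhg10, a host gene of small nucleolar RNAs beside the glutaredoxin gene Glrx5, was the only such host among the 712 bidirectional lncRNAs. It had 4, 11 and 1 reads in control and 1, 7 and 23 reads in H/R libraries and was not tested. Of the lncRNAs with starts up to 100, more than 100 up to 300, and over 300 bases from the gene, 32.4%, 30.1% and 29.6% were tested. Of the 55, 101 and 61 tested, 3, 5 and 1 were higher and 2, 1 and 0 lower at an adjusted p under 0.05 by edgeR, beside 2.67% higher and 2.26% lower over all lncRNAs tested, and their median log2 fold changes were 0.14, 0.06 and 0.46. The 200 tested lncRNAs without a coding exon in their span had a median of 0.18, and the 17 with one a median of -0.08. By source of the model, 34.3% of the Genbank, 24.8% of the Ensembl, 30.6% of the Alexander et al 2013, 42.4% of the RefSeq and 20% of the UCSC transcripts were tested. Of the 217 tested lncRNAs, 12 shared their nearest gene with another tested one.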
